A study of Bos taurus and Ovis aries and Capra hircus with 18 samples.

Results

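The genes described here are 4 actins (ACTA1, ACTC1, ACTA2 and ACTB) and 4 alpha-actinins (ACTN2, ACTN3, ACTN1 and ACTN4), 8 of the 27607 genes in the cattle gene models and 8 of the 13017 genes that could be matched between cattle, sheep and goat. They are muscle and non-muscle paralogs of both families, and the rule that defines them uses no measured value, although earlier results of these data were known when they were chosen. The cattle gene was found by position, and its sheep and goat partners by exon structure and gene order. All 8 were named and all 8 were matched. The study sampled adult muscle and brain of the 3 ruminants, with 3 libraries of poly(A)-selected RNA (A, B and C) in each of 6 groups: cattle muscle, cattle brain, sheep muscle, sheep brain, goat muscle and goat brain. No allele, agent or treatment is named for any group, and neither the muscle nor the brain region is given in the sources used here. Whether A, B and C come from different animals is not stated, and the p-values therefore measure only the spread between these libraries.

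Actin monomers polymerise into thin filaments, which myosin pulls on in muscle and which shape the cell cortex, axons and dendritic spines in brain. Mammals use separate genes for the actin of striated muscle (ACTA1 in skeletal and ACTC1 mainly in cardiac muscle), of smooth muscle (ACTA2, ACTG2) and of the cytoplasm (ACTB, ACTG1). Alpha-actinins are antiparallel dimers that cross-link actin filaments. ACTN2 and ACTN3 anchor thin filaments at the Z-disc of the sarcomere, with ACTN3 known from human and mouse as the form of fast fibres, while ACTN1 and ACTN4 bundle actin in non-muscle cells.

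Library totals ran from 20730803 to 58514630 counts. The labelled tissues carried their markers: all 6 tested skeletal muscle markers were higher in muscle, and all 5 neuronal, all 4 astrocyte and all 3 oligodendrocyte markers tested were lower there. RBFOX3, a neuronal splicing factor, lay between 0.06 and 0.31 CPM per kilobase in the 9 muscle libraries and between 72.6 and 117 in the 9 brain libraries. Sheep brain C stood apart from its group, with a mean Spearman correlation of 0.812 with the other sheep brain libraries, and outside sheep brain the lowest value was the 0.944 of goat muscle C. Values without these libraries are given beside the results that they moved. Levels below are counts per 1000000 of the scaled library (CPM) for each kilobase of exon in the gene's model. This corrects for annotated exonic length only, and levels set between species depend on gene models that were not alike for every member. A gene was called where the Benjamini-Hochberg adjusted p of edgeR's quasi-likelihood test was below 0.05 and the log2 difference was at least 1 in size. Errors after ± are standard errors for log2 differences and standard deviations (SD) for levels and shares.

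The question put to each gene was whether its RNA level differed between muscle and brain, within each species and over all 3. In the fit over the 3 species, the striated actins ACTA1 and ACTC1, the smooth muscle actin ACTA2 and both sarcomeric alpha-actinins were called higher in muscle. The other 3 members, ACTB, ACTN1 and ACTN4, were lower in muscle by less than the fold needed for a call. The 5 called members stood against a background in which 23.2% of 11832 tested genes were called higher and 31.1% lower, which is 2745 and 3683 genes (1138 and 5921 when libraries were scaled by their totals alone). In cattle 5 members were called higher and 1 lower, with 25.3% and 33.9% of 16428 genes called in those directions. In goat 5 were called, each of them higher, with 23.2% and 31.4% of 15825 genes called higher and lower, and ACTB, ACTN1 and ACTN4 all had an adjusted p under 0.05 there in edgeR with a log2 difference short of -1. In sheep 4 were called, each of them higher, with 19.2% and 28.5% of 15616 genes called higher and lower. Without sheep brain C the sheep count was 5, ACTA2 being the addition. In bulk tissue, fewer cells of a type and less RNA per cell cannot be told apart, and this holds for every level given here.

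**Figure D1:**
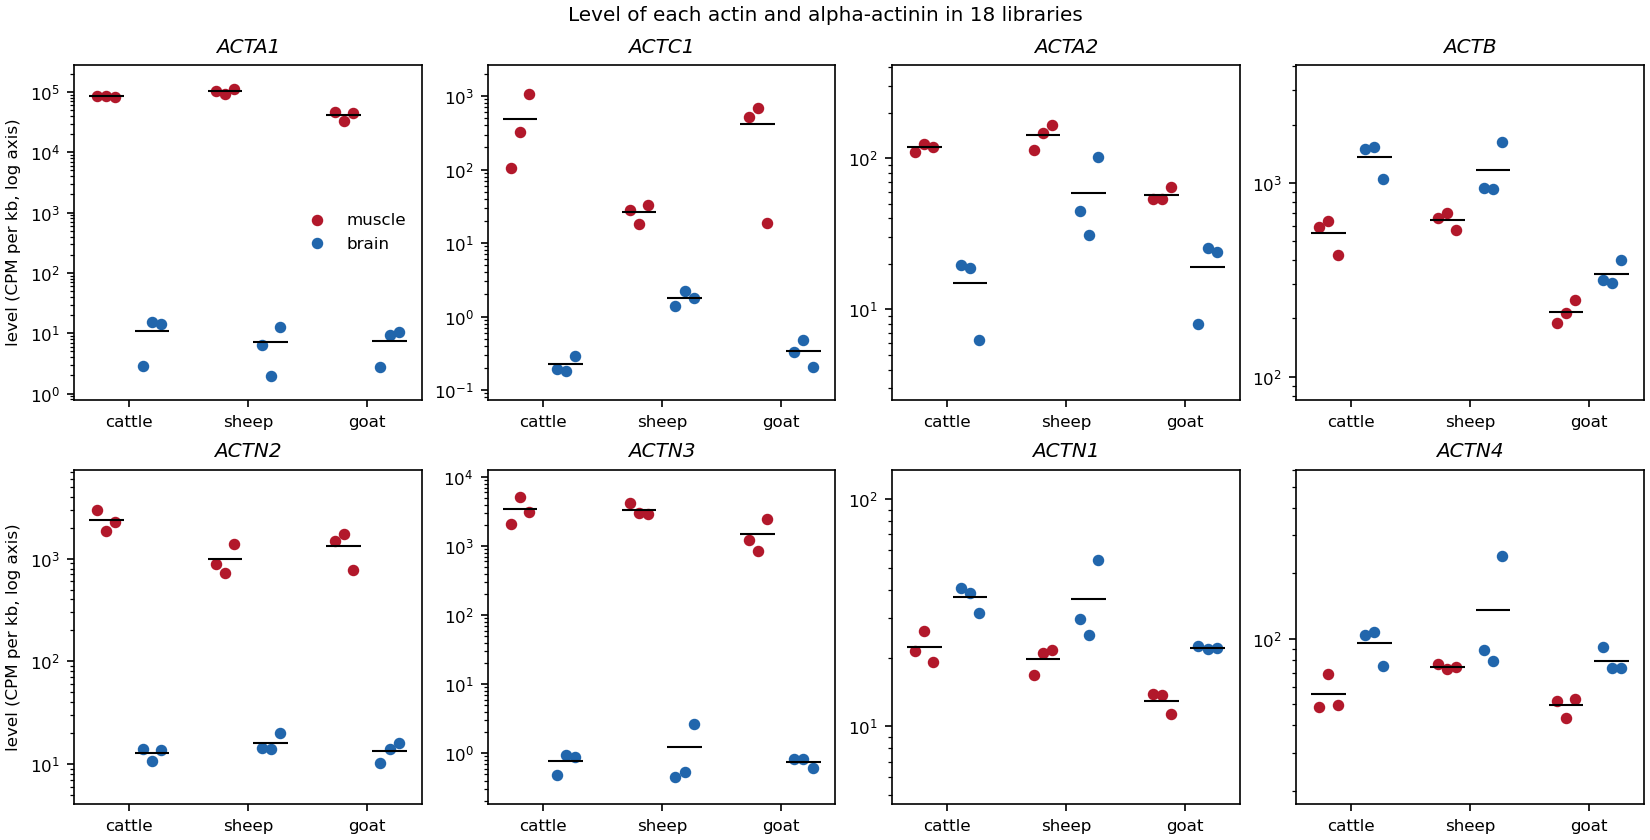
Each panel plots 1 gene, with its level in CPM per kilobase on a log axis. Points are single libraries (A, B and C from left to right in each group), red for muscle and blue for brain, and the black line is the group mean. Within each of the 3 species, muscle and brain do not overlap for any of the 8 genes. Muscle lies above brain for ACTA1, ACTC1, ACTA2, ACTN2 and ACTN3 and below it for ACTB, ACTN1 and ACTN4. Only ACTA1, ACTC1, ACTN2 and ACTN3 also keep muscle and brain apart across species. The share of all tested genes without such overlap is not given here.

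ACTA1, the actin of adult skeletal muscle thin filaments, is annotated on cattle chromosome 28 from 1400372 to 1403383 (ARS-UCD1.2, minus strand, identifier ENSBTAG00000046332). In cattle it stood at 84549.9, 85523 and 84216 CPM per kilobase in muscle A, B and C, against 2.89, 15.3 and 14.0 in brain A, B and C. In sheep it stood at 104379, 91050.3 and 111139 in muscle and at 6.42, 1.96 and 12.8 in brain. In goat the levels were 46168, 33624 and 45498 in muscle and 2.80, 9.32 and 10.4 in brain. The lowest muscle library was thus far above the highest brain library in every species, and the muscle libraries of cattle differed from each other by at most 1.02 times. ACTA1 alone took 6.59% to 8.26% of all counts in the cattle and sheep muscle libraries and 2.08% to 2.92% in those of goat. These shares have no length correction. The goat share leaves out the counts of a second gene model at the locus, described below. The log2 difference of muscle over brain was 12.85 ± 0.57 in cattle, 13.85 ± 0.61 in sheep and 12.39 ± 0.51 in goat (edgeR, adjusted p = 3.97e-06, 0.000133 and 2.78e-06). The sheep value was 14.57 without sheep brain C.

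The brain levels of ACTA1 varied more than the muscle levels, by 5.31 times in cattle, 6.51 times in sheep and 3.70 times in goat between the lowest and the highest library. Transcripts of other skeletal muscle genes also varied among brain libraries. CKM, the creatine kinase of muscle, stood at 0.04, 2.16 and 2.05 CPM per kilobase in cattle brain A, B and C, at 0.00, 0.63 and 2.32 in sheep brain and at 0.03, 1.61 and 0.11 in goat brain. In cattle the library lowest in CKM was also the lowest in ACTA1, and in sheep brain C both were at their highest. The lowest sheep brain library differed, being A for CKM and B for ACTA1. Goat brain C was high in ACTA1 and low in CKM. The summed level of the 6 skeletal muscle markers ran from 13.8 to 24.6 in cattle brain, 10.03 to 34.9 in sheep brain and 5.15 to 21.3 in goat brain, and its part in the ACTA1 level of brain was not tested.

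The goat gene model of ACTA1 was only 899 bases long, against 1861 in cattle and 1170 in sheep. A second goat gene model lay within its span on the same strand, shared no exonic base with it and held 386181 counts in muscle and 123 in brain. With both goat models summed over 1247 exonic bases, ACTA1 stood at 41560.2, 30659.5 and 37455.5 CPM per kilobase in goat muscle, against 2.58, 8.10 and 8.89 in goat brain, and the log2 difference was 12.40 (edgeR, adjusted p = 2.57e-06).

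ACTC1, named for its role as the main actin of heart muscle and also made by developing skeletal muscle, is annotated on cattle chromosome 10 from 30288637 to 30294046 (minus strand, ENSBTAG00000005714). It was the most variable member in cattle and goat muscle, with a highest over lowest library of 9.95 and 37.7 times, whereas in sheep muscle ACTN2 varied more (1.93 times, against 1.80 times for ACTC1). Cattle muscle A, B and C held 106, 325 and 1052 CPM per kilobase, against 0.195, 0.183 and 0.290 in cattle brain. Sheep muscle held 28.03, 18.2 and 32.9, against 1.40, 2.22 and 1.79 in sheep brain. Goat muscle held 524, 699 and 18.5, against 0.327, 0.479 and 0.203 in goat brain. Goat muscle C thus lay at the sheep level, at 0.0303 times the mean of goat muscle A and B. No muscle library overlapped a brain library, and the level in brain rested on 12 to 23 counts per library in cattle and goat and on 59 to 109 in sheep.

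The log2 difference of ACTC1, muscle over brain, was 11.01 ± 0.88 in cattle, 3.88 ± 0.36 in sheep and 10.25 ± 1.03 in goat (edgeR, adjusted p = 2.33e-05, 0.000368 and 0.000201). Its tissue difference was larger in cattle than in sheep by 7.24 ± 1.26 on the log2 scale (edgeR interaction, adjusted p = 0.00168) and the sheep minus goat value was -6.41 ± 1.24 (edgeR interaction, adjusted p = 0.00893). Both calls held in every fit that left out 1 library. In muscle, ACTC1 in cattle over sheep was 4.23 ± 0.82 and in sheep over goat -3.97 ± 0.82 (edgeR, adjusted p = 0.00223 and 0.00407). The sheep ACTC1 model was 1266 exonic bases long, against 2123 in cattle and 1971 in goat, and levels between species depend on these lengths. How reads that also match ACTA1 were counted is not given in the sources used here. In brain, cattle over sheep was -3.01 ± 0.95 (edgeR, adjusted p = 0.0278), a call that was lost in 5 of the 18 fits that left out 1 library (cattle brain A, B or C, or sheep brain B or C). Sheep over goat in brain was 2.44 ± 0.94 and missed the threshold (edgeR, adjusted p = 0.0801), but was called by DESeq2 (2.43, adjusted p = 0.0157), without goat muscle C (2.44, edgeR, adjusted p = 0.0122) and without both goat muscle C and sheep brain C (2.38, edgeR, adjusted p = 0.0293). Without cattle muscle C the cattle tissue difference was 9.82, the cattle minus sheep interaction 6.04 and cattle over sheep in muscle 3.03 (edgeR, adjusted p = 1.73e-05, 0.00503 and 0.0152). Without goat muscle B the sheep minus goat interaction was -5.80 and sheep over goat in muscle -3.36 (edgeR, adjusted p = 0.0210 and 0.0166). Without goat muscle C the goat tissue difference was 10.85 and the sheep minus goat interaction -6.97 (edgeR, adjusted p = 5.47e-07 and 0.000450).

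Markers of heart and of developing muscle were read beside ACTC1. Of 4 heart markers matched, MYL7, the atrial light chain, was at 0 in all 18 libraries. The summed level of the 4 ran from 7.21 to 26.4 CPM per kilobase in cattle muscle, from 1.08 to 2.65 in sheep muscle and from 17.5 to 20.8 in goat muscle, against 0.679 to 0.854, 3.85 to 7.87 and 3.25 to 6.85 in the brain of those species. In the fit over 3 species TNNT2 was called higher in muscle, MYBPC3 lower and MYH6 was not called, with a list median of 1.91. MYH6, the alpha myosin heavy chain of heart, stood at 17.3, 16.0 and 4.52 in goat muscle A, B and C, so that the library low in ACTC1 was also low in MYH6. TNNT2, the cardiac troponin T, ran the other way in goat, at 3.58, 2.17 and 12.9. In cattle both were highest in the library lowest in ACTC1, with MYH6 at 20.9, 10.5 and 4.74 and TNNT2 at 5.42, 4.05 and 2.37 where ACTC1 was 106, 325 and 1052. All 6 markers of developing or regenerating muscle were called higher in muscle, with a median log2 difference of 7.08. Their summed level was 106 to 155 in cattle muscle, 82.3 to 347 in sheep muscle and 90.7 to 132 in goat muscle, against at most 1.03 in any brain library. The sheep muscle range of this sum spanned those of the other species. In sheep muscle A, MYOG held 244 and MYOD1 81.8 of the 347. MYH3 ran from 0.214 to 0.908 in cattle muscle, 1.78 to 2.51 in sheep muscle and 2.596 to 10.9955 in goat muscle. MYH8 ran from 0.135 to 0.165, 0.664 to 3.71 and 1.56 to 34.4 in those groups. The part of either list in the ACTC1 level was not tested.

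ACTA2, the actin of vascular smooth muscle, is annotated on cattle chromosome 26 from 10626803 to 10679430 (minus strand, ENSBTAG00000014614). In cattle, muscle A, B and C held 110, 125 and 118 CPM per kilobase, against 19.7, 18.9 and 6.30 in cattle brain. Sheep muscle held 113, 148 and 165, against 44.9, 30.8 and 101 in sheep brain. Goat muscle held 53.3, 53.6 and 64.2, against 7.95, 25.5 and 24.1 in goat brain. Muscle lay above brain within each species, although sheep brain C came close to the lowest sheep muscle library and was above all 3 goat muscle libraries. The log2 difference was 2.89 ± 0.36 in cattle and 1.51 ± 0.40 in goat (edgeR, adjusted p = 0.000184 and 0.0108), and the goat call was lost when libraries were scaled by their totals alone (0.76, edgeR, adjusted p = 0.133). In sheep it was 1.29 ± 0.45 and missed the threshold (edgeR, adjusted p = 0.0539). It was called in sheep by DESeq2 (1.27, adjusted p = 0.0300) and without sheep brain C (1.90, edgeR, adjusted p = 0.000266). Over the 3 species ACTA2 was higher in muscle by 1.93 ± 0.31 (edgeR, adjusted p = 3.91e-05), a call that was likewise lost with total scaling (0.99, edgeR, adjusted p = 0.00610). The cattle minus sheep interaction was 1.71 ± 0.66 and was not called (edgeR, adjusted p = 0.0789), but was called without sheep brain B (2.01, edgeR, adjusted p = 0.0365) and by DESeq2 (1.71, adjusted p = 0.0473). Of the cattle model's 2656 exonic bases, 95 are shared with a gene on the opposite strand, and whether counting used strand is not given in the sources used here.

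Of 7 smooth muscle and pericyte markers tested, 4 were called higher in muscle (SMTN, TAGLN, MYH11 and CNN1), and RGS5, PDGFRB and NOTCH3 were not called, with a median of 1.01. Their summed level was 282 to 296 CPM per kilobase in cattle muscle, 459 to 570 in sheep muscle and 348 to 413 in goat muscle, against 72.0 to 154, 134 to 208 and 99.0 to 149 in the brain of those species. In sheep brain C TAGLN stood at 134 against 68.1 and 42.2 in sheep brain A and B, while RGS5, a pericyte gene, stood at 3.01 against 58.6 and 56.8. All 5 endothelial markers were called higher in muscle, with a median of 1.77. The part of these markers in the ACTA2 difference was not tested.

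ACTB, the beta-actin of the cytoplasm, is annotated on cattle chromosome 25 from 38799230 to 38802646 (plus strand, ENSBTAG00000026199). Cattle muscle A, B and C held 591, 634 and 428 CPM per kilobase, against 1493, 1534 and 1048 in cattle brain. Sheep muscle held 656, 698 and 574, against 939, 935 and 1619 in sheep brain. Goat muscle held 190.1, 213 and 249, against 314, 305 and 399 in goat brain. Every muscle library lay below every brain library of its species. ACTB was called lower in cattle muscle, with a log2 difference of -1.39 ± 0.24 (edgeR, adjusted p = 0.000869). It was not called in sheep, at -0.84 ± 0.30, or in goat, at -0.69 ± 0.26 (edgeR, adjusted p = 0.0554 and 0.0426). The sheep value was -0.55 without sheep brain C (edgeR, adjusted p = 0.0124). Over the 3 species it was -0.93 ± 0.17 (edgeR, adjusted p = 8.87e-05), under the fold needed for a call. The tissue difference of ACTB was not called between any pair of species, the largest in size being -0.66 ± 0.38 for cattle minus goat (edgeR, adjusted p = 0.286).

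ACTG1, the gamma-actin of the cytoplasm and the nearest relative of ACTB, was called lower in muscle over the 3 species, by -1.32 ± 0.18 (edgeR, adjusted p = 2.90e-06). It averaged 275 ± 46.3 CPM per kilobase in cattle muscle and 1058 ± 118 in cattle brain, 471 ± 45.3 in sheep muscle and 869 ± 55.4 in sheep brain, and 257 ± 49.2 in goat muscle and 571 ± 151 in goat brain (SD, n = 3 each). ACTG2, the enteric smooth muscle actin, was called higher, by 1.78 ± 0.49 (edgeR, adjusted p = 0.00681). Its levels were low, at most 10.6 in any muscle library and at most 3.03 in any brain library. Of the 6 tested actins and actin-related genes outside the 8 members, 2 were called higher (ACTL6A and ACTG2), 2 lower (ACTL6B and ACTG1) and 2 not called (ACTR1A and ACTR1B), with a median of -0.42. ACTL6B, the actin-related subunit of neuronal chromatin remodelling complexes, was lower in muscle by -10.77 ± 0.82 (edgeR, adjusted p = 3.24e-12). Actin coding sequences are close to each other, and how reads with several placements were counted is not given in the sources used here, so a level that is small beside that of a paralog is uncertain.

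ACTN2, the alpha-actinin of all striated fibres, is annotated on cattle chromosome 28 from 9321730 to 9403358 (plus strand, ENSBTAG00000009696). Its level in cattle muscle A, B and C was 2946, 1845 and 2256 CPM per kilobase, against 14.0, 10.8 and 13.7 in cattle brain. Sheep muscle held 893, 719 and 1384, against 14.3, 13.8 and 19.95 in sheep brain. Goat muscle held 1487, 1719 and 773, against 10.2, 13.9 and 16.1 in goat brain. The tissues did not overlap in any species, and the brain ranges of the 3 species overlapped. The log2 difference of muscle over brain was 7.43 ± 0.25 in cattle, 5.98 ± 0.33 in sheep and 6.59 ± 0.37 in goat (edgeR, adjusted p = 2.89e-07, 0.000107 and 4.67e-06). It was 6.15 in sheep without sheep brain C and 6.91 in goat without goat muscle C (edgeR, adjusted p = 7.87e-06 and 1.14e-06). It was larger in cattle than in sheep by 1.56 ± 0.46 (edgeR interaction, adjusted p = 0.0264), a call that was lost when cattle brain B, cattle muscle A, sheep muscle A or sheep muscle B was left out (1.36 to 1.48, edgeR, adjusted p = 0.0650 to 0.0735). In muscle ACTN2 was higher in cattle than in sheep by 1.23 ± 0.33 (edgeR, adjusted p = 0.00844). In brain cattle over sheep was -0.32 ± 0.33 (edgeR, adjusted p = 0.482).

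ACTN3, the Z-disc alpha-actinin of fast fibres, is annotated on cattle chromosome 29 from 44582264 to 44596714 (plus strand, ENSBTAG00000022244). In cattle, muscle A, B and C held 2102, 5165 and 3171 CPM per kilobase, against 0.487, 0.935 and 0.885 in cattle brain. Sheep muscle held 4258, 2995 and 2940.1, against 0.457, 0.532 and 2.69 in sheep brain. Goat muscle held 1243, 843 and 2446, against 0.838, 0.819 and 0.612 in goat brain. Next to ACTA1 this was the widest gap between tissues, with log2 differences of 12.05 ± 0.40 in cattle, 11.47 ± 0.68 in sheep and 10.90 ± 0.41 in goat (edgeR, adjusted p = 5.19e-07, 0.000264 and 1.17e-06). Brain levels rested on 43 to 89 counts per library, with 234 in sheep brain C. Without that library the sheep value was 12.74, and without goat muscle C the goat value was 10.43 (edgeR, adjusted p = 4.44e-07 and 5.03e-07). The tissue difference was not called between any pair of species in all 18 libraries. Without sheep brain C and goat muscle C it was larger in cattle than in goat by 1.70 and in sheep than in goat by 2.31 (edgeR interaction, adjusted p = 0.0196 and 0.0147), a fit added after the data were seen.

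**Figure D2:**
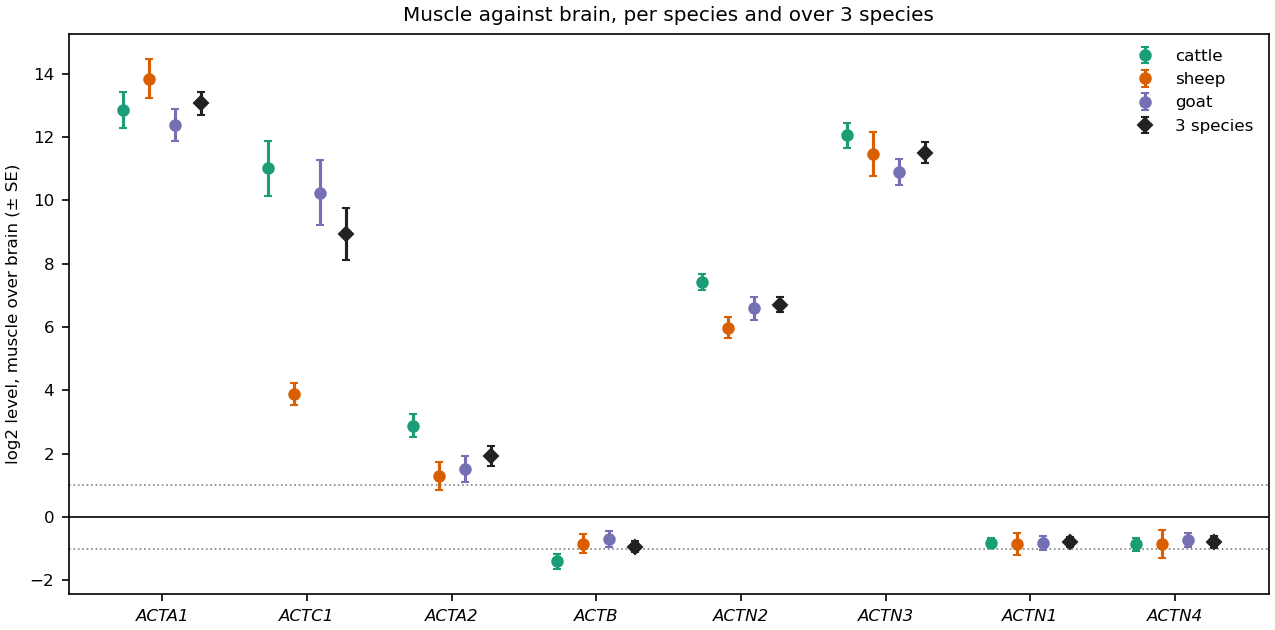
The log2 difference of muscle over brain is plotted for each gene in cattle, sheep, goat and the fit over 3 species, with bars of 1 standard error and dotted lines at 1 and -1. ACTC1 in sheep, at 3.88, sits far below its values in cattle and goat, and ACTB, ACTN1 and ACTN4 lie between 0 and -1.5 in every fit.

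ACTN1, which bundles actin at stress fibres and adhesions, is annotated on cattle chromosome 10 from 80672883 to 80775228 (minus strand, ENSBTAG00000018255). Cattle muscle A, B and C held 21.4, 26.3 and 19.2 CPM per kilobase, against 40.8, 38.4 and 31.6 in cattle brain. Sheep muscle held 16.9, 21.0 and 21.6, against 29.7, 25.2 and 54.0 in sheep brain. Goat muscle held 13.8, 13.7 and 11.4, against 22.7, 21.9 and 22.1 in goat brain. Muscle lay below brain in each species without overlap. The log2 differences were close to each other, at -0.82 ± 0.17 in cattle, -0.85 ± 0.35 in sheep and -0.82 ± 0.22 in goat (edgeR, adjusted p = 0.00202, 0.0817 and 0.0110), and none reached the fold for a call. Without sheep brain C the sheep value was -0.47 (edgeR, adjusted p = 0.0246).

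ACTN4, the alpha-actinin of the cell cortex that also enters the nucleus, is annotated on cattle chromosome 18 from 48402709 to 48476443 (plus strand, ENSBTAG00000011215). Cattle muscle A, B and C held 48.6, 69.1 and 49.7 CPM per kilobase, against 104, 108 and 74.7 in cattle brain. Sheep muscle held 76.5, 73.0 and 74.1, against 88.6, 79.1 and 240.2 in sheep brain. Goat muscle held 52.0, 43.4 and 52.8, against 91.4, 73.1 and 73.3 in goat brain. The sheep brain mean was carried by library C, which reached 2.86 times the mean of A and B. The log2 difference was -0.87 ± 0.21 in cattle and -0.73 ± 0.22 in goat (edgeR, adjusted p = 0.00531 and 0.0178). In sheep it was -0.84 ± 0.44 with all libraries and -0.17 without sheep brain C (edgeR, adjusted p = 0.161 and 0.255). ACTN4 was therefore not called in any species, although in cattle it was called when brain C (-1.05, edgeR, adjusted p = 0.00214) or muscle B (-1.05, edgeR, adjusted p = 0.00286) was left out. With libraries scaled by their totals alone, ACTB, ACTN1 and ACTN4 were all called lower in all 3 species and over the 3 species (over the 3 species -1.88, -1.73 and -1.71). That scaling moved the median of all tested genes to -1.02, against -0.06 in the values given here. Relative to that median ACTB, ACTN1 and ACTN4 stood at -0.86, -0.71 and -0.69 and ACTA2 at 2.01 under total scaling, against -0.87, -0.73, -0.71 and 1.99 under the scaling used here.

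Sheep brain C, relative to the mean of sheep brain A and B, was higher in ACTN3 by 5.45 times, ACTA1 by 3.05 times, ACTN4 by 2.86 times, ACTA2 by 2.67 times, ACTN1 by 1.97 times, ACTB by 1.73 times and ACTN2 by 1.42 times. ACTC1 alone was at 0.990 times their mean. In the same library 3 of 5 neuronal markers were at their lowest of the 3 libraries (RBFOX3, SNAP25 and SYT1) and ENO2 and SYN1 at their highest, with a summed level of 1801 CPM per kilobase against 2631 and 2238 in sheep brain A and B. Of 7 smooth muscle and pericyte markers 4 were at their highest there (MYH11, TAGLN, CNN1 and SMTN) and RGS5, PDGFRB and NOTCH3 at their lowest, and all 6 skeletal muscle markers were at their highest. The part of these markers in the members' levels was not tested.

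The members also differed in how they shared the pool of their family. Among the 4 alpha-actinins, ACTN3 made up 57.2% ± 15.8 of the summed level in cattle muscle, 75.5% ± 7.84 in sheep muscle and 50.4% ± 21.8 in goat muscle, against 0.543% ± 0.217, 0.547% ± 0.267 and 0.654% ± 0.101 in the brain of those species (SD, n = 3 each). ACTN2 made up 41.5% ± 15.8, 22.4% ± 7.77 and 47.5% ± 21.6 in muscle and 8.97% ± 2.27, 9.56% ± 2.86 and 11.7% ± 3.24 in brain. ACTN4 was the main form in brain, with 65.1% ± 3.26, 69.7% ± 5.30 and 68.3% ± 4.14, against 0.942% ± 0.0347, 1.68% ± 0.229 and 1.71% ± 0.134 in muscle. ACTN1 followed in brain with 25.4% ± 0.957, 20.2% ± 2.79 and 19.3% ± 0.987, against 0.380% ± 0.0351, 0.454% ± 0.118 and 0.455% ± 0.0953 in muscle. The sarcomeric forms thus made up nearly all of the alpha-actinin level of muscle, and in brain ACTN2 kept a share well above that of ACTN3.

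Among the 4 actins ACTA1 took 98.6% ± 0.466 of the summed level in cattle muscle, 99.2% ± 0.130 in sheep muscle and 98.3% ± 1.04 in goat muscle, against 0.826% ± 0.575, 0.529% ± 0.287 and 1.996% ± 0.999 in brain (SD, n = 3 each). ACTB took 0.641% ± 0.125, 0.632% ± 0.124 and 0.521% ± 0.107 in muscle and 98.1% ± 0.349, 94.8% ± 1.53 and 92.7% ± 3.55 in brain. ACTA2 had 0.137% ± 0.00743, 0.138% ± 0.0274 and 0.136% ± 0.0210 in muscle and 1.03% ± 0.385, 4.51% ± 1.32 and 5.17% ± 2.55 in brain. With ACTG1 and ACTG2 added to the pool, ACTB held 55.4% ± 2.497, 54.5% ± 5.42 and 36.5% ± 2.30 of the actin level in cattle, sheep and goat brain, and ACTG1 43.6% ± 2.51, 42.3% ± 6.51 and 60.4% ± 3.19. The lower ACTB share in goat goes with a goat ACTB model of 4472 exonic bases, against 1835 in cattle and 1839 in sheep. The 4 actins together were 12.2 to 25.3 times as abundant as the 4 alpha-actinins in the muscle libraries, against 2.601 to 9.91 times in the brain libraries. By species the brain values were 8.84 to 9.91 in cattle, 5.47 to 8.17 in sheep and 2.601 to 3.87 in goat. The goat values use the goat ACTB model of 4472 exonic bases, and ACTG1 and ACTG2 are left out of this sum. With both in the pool, ACTG1 held 0.319%, 0.459% and 0.613% of the actin level in cattle, sheep and goat muscle. Its brain shares, given above, were far larger. Leaving ACTG1 and ACTG2 out thus lowers the brain ratios far more than the muscle ratios. The gap between tissues is therefore given for the 4 actins alone, and ratios with ACTG1 and ACTG2 were not calculated.

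**Figure D3:**
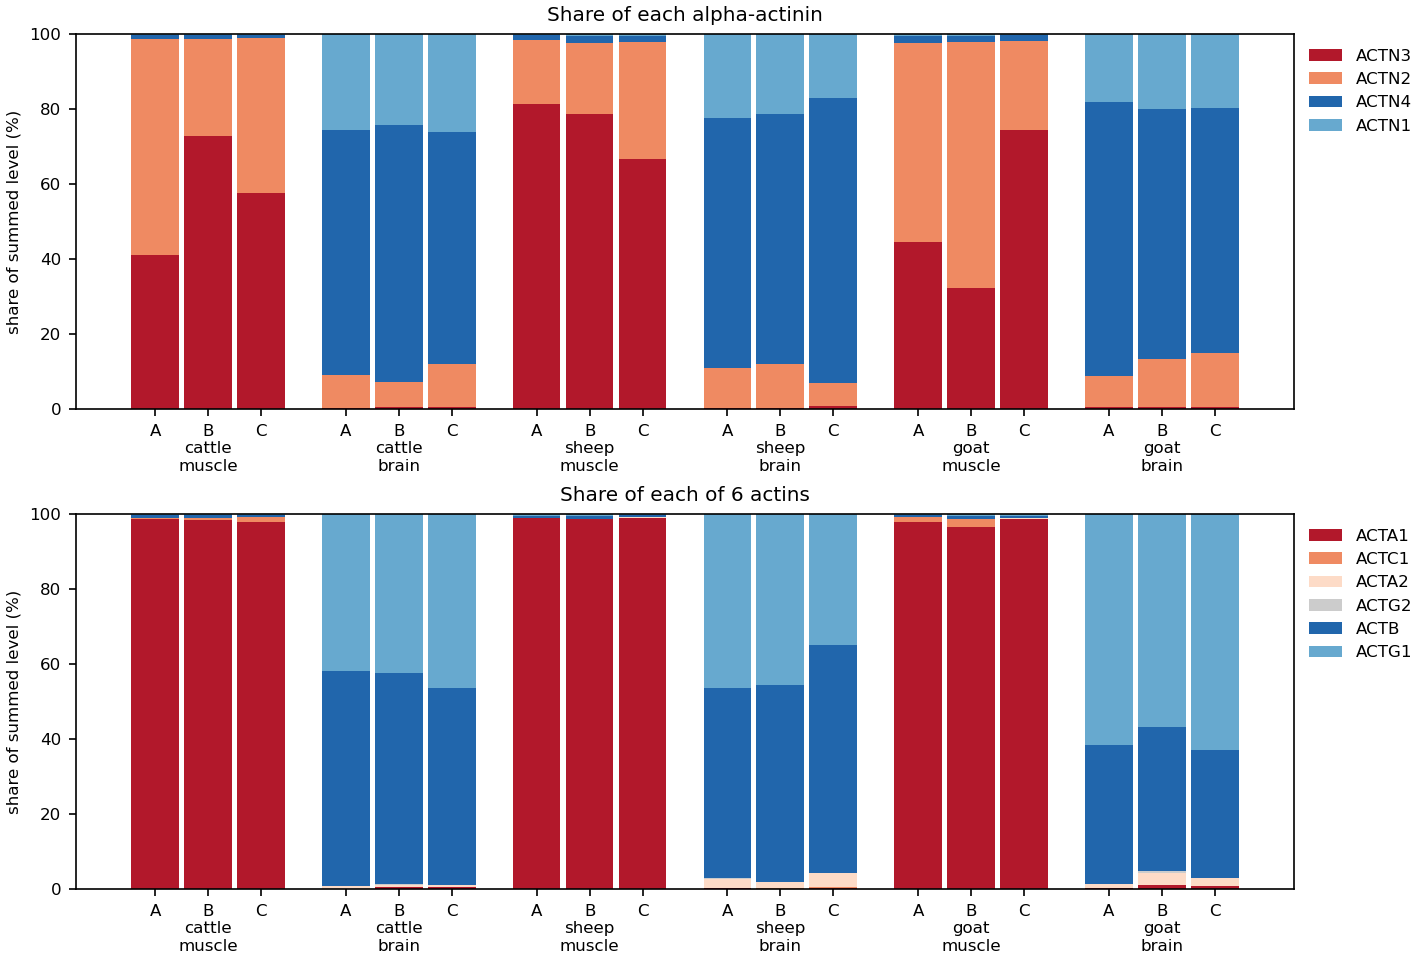
Stacked bars give each paralog's share of the summed level (CPM per kilobase) of its family in each of the 18 libraries, for the 4 alpha-actinins (top) and for 6 actins, ACTG1 and ACTG2 included (bottom). The split between ACTN3 and ACTN2 varies among muscle libraries, with ACTN3 between 32.2% and 81.2%, whereas ACTA1 holds 96.5% or more of the actin level in every muscle library.

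The order of the levels was led by ACTA1 in muscle and by ACTB in brain in all 3 species. In muscle ACTN3 and ACTN2 came next in each species, but their ranges overlapped in cattle and goat and were separate only in sheep. ACTN1 came last in muscle in each species, overlapping with ACTC1 in sheep. In brain ACTN4 came second in each species, and its range was clear of the next gene in cattle and goat and overlapped with ACTA2 in sheep. ACTC1 came last in the brain of cattle and goat and ACTN3 last in sheep brain, where the ranges of those genes overlapped.

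The ratio of ACTN3 to ACTN2 varied among muscle libraries of the same species. It was 0.714, 2.80 and 1.41 in cattle muscle A, B and C, 4.77, 4.17 and 2.12 in sheep muscle and 0.836, 0.490 and 3.16 in goat muscle. MYH7, the slow myosin heavy chain, stood at 7099, 2959 and 3312 CPM per kilobase in those cattle libraries, at 894, 1153 and 1035 in sheep and at 2685, 2281 and 417 in goat. TNNT3, the fast troponin T, stood at 8808, 18122 and 14653 in cattle, at 16176, 13655 and 13122 in sheep and at 14026, 13566 and 33533 in goat. Over the whole lists, cattle muscle A, with the lowest cattle ratio, had the highest level of 9 of 10 slow fibre genes, MYL3 being at its lowest, and the lowest level of 7 of 9 fast fibre genes. Goat muscle C, with the highest goat ratio, had the lowest level of all 10 slow fibre genes and the highest of 6 of 9 fast fibre genes, MYH4 and PVALB being at their lowest. There ACTN2 was at 0.482 times and ACTN3 at 2.35 times the mean of goat muscle A and B. Sheep muscle A, with the highest sheep ratio, had the lowest level of 9 slow fibre genes and the highest of 8 fast fibre genes. Sheep muscle C, with the lowest sheep ratio, lay between A and B in the summed level of both lists. The part of fibre makeup in the ratio was not tested. ACTC1 did not keep to 1 side of this split, being low in goat muscle C where MYH7 was low and low in cattle muscle A where MYH7 was high. Because the muscle sampled is not given in the sources used here, a difference between species and a difference between muscles cannot be told apart.

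**Figure D4:**
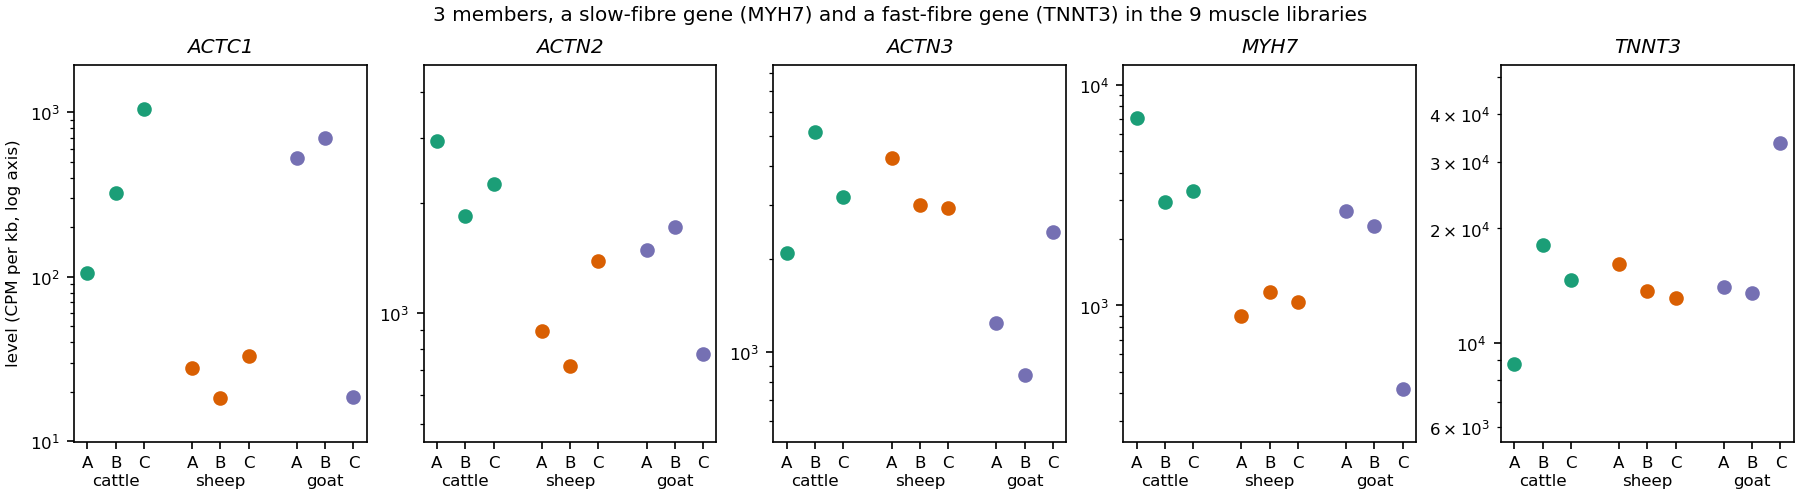
Levels in CPM per kilobase (log axis) of ACTC1, ACTN2, ACTN3, MYH7 and TNNT3 are plotted for the 9 muscle libraries, coloured by species, each point being 1 library. Goat muscle C is low in ACTC1 (18.5), ACTN2 (773) and MYH7 (417) and high in TNNT3 (33533), and cattle muscle A is the highest in MYH7 (7099).

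Species were also compared within each tissue. In muscle 2 members were called between cattle and sheep (ACTC1 and ACTN2, above), with 29.1% of 11832 genes called in either direction. Between cattle and goat ACTB was the single member called, by 1.34 ± 0.27 (edgeR, adjusted p = 0.000991), with 33.2% of genes called. Without sheep brain C ACTA2 (1.04) and ACTN3 (1.19) were called there too (edgeR, adjusted p = 0.0382 and 0.0144), as were ACTN2 without goat muscle B (1.05) and ACTN3 without goat muscle C (1.73, edgeR, adjusted p = 0.0372 and 0.0425). Between sheep and goat ACTC1, ACTB and ACTA2 were called, with 22.9% of genes called. ACTN3 was called there too without sheep brain C (1.10, edgeR, adjusted p = 0.0280). It was also called in the added fit without sheep brain C and goat muscle C (1.62, edgeR, adjusted p = 0.00238). ACTB was 1.56 ± 0.27 and ACTA2 1.31 ± 0.47 in sheep over goat (edgeR, adjusted p = 0.000501 and 0.0477). The ACTA2 call was lost in 13 of the 18 fits that left out 1 library and with RLE scaling (1.16, edgeR, adjusted p = 0.0904). In brain ACTC1 and ACTA2 were called between cattle and sheep, ACTA2 by -1.98 ± 0.47 (edgeR, adjusted p = 0.00578), with 25.5% of genes called. That ACTA2 value was -1.26 without sheep brain C (edgeR, adjusted p = 0.0396). ACTB was called between cattle and goat by 2.001 ± 0.27 (edgeR, adjusted p = 6.47e-05), with 22.9% of genes called. Between sheep and goat ACTB was called by 1.78 ± 0.27 and ACTA2 by 1.62 ± 0.47 (edgeR, adjusted p = 0.000211 and 0.0228), with 18.2% of genes called. That ACTA2 call was lost without sheep brain C (0.89), without goat brain A (1.24) or without the length offset (1.03, edgeR, adjusted p = 0.129), and without sheep brain A or B ACTN4 was called (1.01 and 1.05, edgeR, adjusted p = 0.0432 and 0.0296). The called ACTB values rest on the length of the goat model. Without the length offset ACTB in cattle over goat was -0.22 in muscle and 0.41 in brain and was not called (edgeR, adjusted p = 0.544 and 0.306). In sheep over goat ACTB was then 0.42 in muscle and 0.62 in brain, and ACTA2 0.75 in muscle, none of them called (edgeR, adjusted p = 0.272, 0.115 and 0.257). Other members were called in that fit: ACTA1 in muscle in cattle over goat and in sheep over goat (1.80 and 1.81, edgeR, adjusted p = 0.0312 and 0.0450), and ACTN4 in sheep over goat in muscle and in brain (1.09 and 1.26, edgeR, adjusted p = 0.0259 and 0.0156). Tissue differences within a species do not use that length. Of the 8 members, 2 had a called interaction for cattle minus sheep, where 20% of all genes were called. For sheep minus goat it was 1 member, with 7.28% of genes called. For cattle minus goat it was 0 members in edgeR and in DESeq2, with 13.4% of genes called in edgeR. There 1 member, ACTA2, had an unadjusted p under the threshold (1.40 ± 0.66, edgeR, adjusted p = 0.181).

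Genes that work with actin and alpha-actinin were read from lists, in the fit over 3 species, where the median log2 difference of all tested genes was -0.06. Of 15 tested thin filament genes all 15 were called higher in muscle, with a median of 10.33. NEB, the giant ruler of the thin filament, was higher by 10.20 ± 0.22, the fast troponin I TNNI2 by 13.45 ± 0.31 and KLHL41, which stabilises nebulin, by 12.44 ± 0.33 (edgeR, adjusted p = 8.55e-15, 4.15e-14 and 1.42e-13). Of 13 Z-disc and alpha-actinin partners 12 were called higher and CAPZA1, a subunit of the barbed-end capping protein, was not (0.85 ± 0.25, edgeR, adjusted p = 0.00661), with a median of 8.34. LDB3 was higher by 9.94 ± 0.25, MYOZ2 by 12.77 ± 0.39 and PDLIM3 by 8.10 ± 0.23 (edgeR, adjusted p = 4.26e-14, 7.29e-14 and 1.09e-13), all of them known to bind alpha-actinin at the Z-disc. Of 9 fast fibre genes 8 were called higher and PVALB, a calcium buffer also made by interneurons, was lower by -4.54 ± 0.52 (edgeR, adjusted p = 2.70e-06), with a median of 11.70. All 10 slow fibre genes were called higher, with a median of 10.46.

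Regulators of non-muscle actin were split. Of 15 genes for monomer binding and turnover 4 were called higher in muscle, 5 lower and 6 not called, with a median of -0.19. CFL2, the muscle cofilin, was higher by 3.62 ± 0.19, and CFL1, the non-muscle cofilin, was lower by -2.88 ± 0.18, as was destrin (DSTN), by -2.74 ± 0.16 (edgeR, adjusted p = 2.003e-11, 1.79e-10 and 2.87e-11). LIMK1, a kinase of cofilin, was lower by -2.93 ± 0.18 (edgeR, adjusted p = 1.11e-10). Of 19 Arp2/3 and formin genes 9 were called lower and 10 were not called, with a median of -0.78. WASF1, the neuronal activator of Arp2/3, was lower by -9.57 ± 0.23, against -0.78 ± 0.16 for ACTR3, a core subunit that was not called (edgeR, adjusted p = 3.64e-15 and 0.000275). Of 19 non-muscle bundlers and adhesion partners 8 were called higher, 6 lower and 5 not called, with a median of 0.80. CTNNA2, the neuronal alpha-catenin, was lower by -12.38 ± 0.71 and SPTAN1, the non-erythroid alpha-spectrin, by -2.94 ± 0.15, while PDLIM1, which binds alpha-actinin, was higher by 7.11 ± 0.36 (edgeR, adjusted p = 8.55e-15, 8.37e-12 and 1.01e-10).

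Of 11 dendritic spine partners 10 were called lower and HOMER1 was not called (0.65 ± 0.30, edgeR, adjusted p = 0.0685), with a median of -4.06. SHANK1, a scaffold of the postsynaptic density, was lower by -11.47 ± 0.27, DLG4 by -6.66 ± 0.18 and spinophilin (PPP1R9B), which binds actin, by -4.06 ± 0.17 (edgeR, adjusted p = 3.64e-15, 2.33e-14 and 1.11e-12). Of 8 genes for serum response factor and its cofactors, which switch on actin genes, 4 were called higher (TEAD4, SRF, TEAD1 and MYOCD), 2 lower (FHL2 and MRTFB) and 2 not called (MRTFA and ELK1), with a median of 0.58. SRF itself was higher by 2.05 ± 0.17 (edgeR, adjusted p = 5.15e-09). Of 4 fibroblast markers 3 were called higher and PDGFRA lower, with a median of 3.32.

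**Figure D5:**
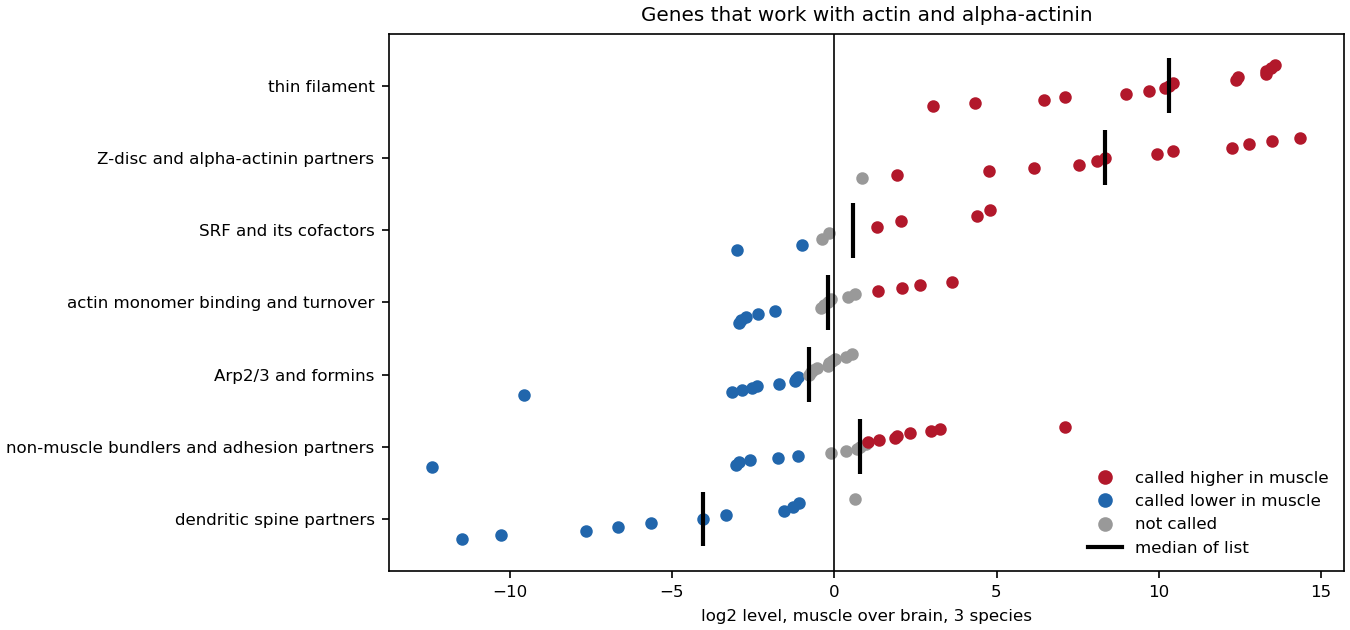
Each point is a gene of the named list, placed by its log2 difference of muscle over brain in the fit over 3 species, red where called higher in muscle, blue where called lower and grey where not called, and the black bar is the list median. Thin filament and Z-disc genes lie to the right, with medians of 10.33 and 8.34, and dendritic spine partners to the left, with a median of -4.06.

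Likeness of pattern was measured as Pearson's r of log2 levels over the 18 libraries, which share tissue and species, and is given as a description. Among members, ACTA1 and ACTN3 were the most alike (0.994), followed by ACTA1 and ACTN2 (0.983) and by ACTN2 and ACTN3 (0.980). ACTC1 was nearer to ACTN2 (0.936) than to ACTA1 (0.880). On the non-muscle side ACTB and ACTN1 reached 0.882 and ACTN1 and ACTN4 0.843, while ACTA2 and ACTB were at -0.09. Over all other tested genes with a symbol, ATP2A1, MFAP5 and JSRP1 were closest to ACTA1 (0.996, 0.996 and 0.995) and JSRP1, HJV and OSR2 to ACTN3 (0.997, 0.996 and 0.996). NRAP, SLC2A4 and KLHL40 were closest to ACTN2 (0.994, 0.994 and 0.993) and ANKRD2, MYLK4 and METTL21E to ACTC1 (0.954, 0.953 and 0.952). ACTA2 was closest to MYH11, the smooth muscle myosin heavy chain (0.957), then to NAP1L4 (0.948) and MRGPRF (0.941). ACTB was closest to SCARB1 (0.966), BAIAP2L2 (0.957) and TPST1 (0.954), ACTN1 to ZFHX2 (0.958), CEP131 (0.941) and SLX4 (0.934), and ACTN4 to GLIS1 (0.958), PCNX3 (0.933) and CSK (0.927).

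The gene models behind these values differ between species. ACTA2 and ACTB were matched in the first step, by pairs of exon lengths checked against gene order, and the other 6 in the second step, by exon lengths shared with a gene lying between the partners of their neighbours. Between 8 and 10 neighbouring genes were compared for each member and each partner species, and all of them lay on the chromosome of the partner. The cattle ACTN3 model of 2946 exonic bases shares 54 of them with a gene on the opposite strand that held 192 counts in cattle muscle and 1953 in cattle brain, so brain levels of cattle ACTN3 could include reads of that gene.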

How the data were processed

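RNA was taken from frozen adult tissue with TRIzol and selected with oligo(dT) beads, per the labels' protocols. The submitters' processing notes name Trimmomatic 0.39, STAR 2.7.6, featureCounts and, as the only genome build, ARS-UCD1.2. The sources used here give neither the sheep and goat builds nor strandedness nor how reads with several placements were handled. The deposited values are raw read counts per gene, counted by the authors for each species on its own gene models.

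Cattle genes were named by overlap with RefSeq spans (ARS-UCD2.0, a later build, used for names only), requiring at least 0.5 of the union, or else 0.9 of the RefSeq span inside the model with an edge within 50 bases. This named 16212 genes. Sheep and goat genes were matched where they had 2 or more pairs of adjacent exon lengths in common and kept gene order, and then between matched neighbours (5 on each side, rank distance at most 15), which gave 13017 genes, 9002 of them from the first step. The matching rules were adjusted after the first attempt paired paralogs wrongly.

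Counts were fitted with edgeR 4.0.16 (robust quasi-likelihood, filterByExpr, TMM scaling) in R 4.3.3, within each species and over the matched genes with exonic length as offset, and adjusted by Benjamini-Hochberg over all genes tested. Alternatives were DESeq2 1.42.0, RLE scaling, library totals, no filter, no length offset, first-step matches, each library left out and a replicate block. Likeness used a pseudocount of 0.5 CPM. The scripts were tested on simulated data.

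The members and gene lists were chosen with earlier results of these data known. By rule all 8 members are named, and for each list at most the 3 genes with the smallest adjusted p, at most 2 that went against its median, and uncalled genes where needed. ACTR3 and the marker genes given per library were named outside that rule, after their values were seen. CFL1, MYOCD and CNN1 also fell outside it. No list was trimmed. The letters were not treated as pairs. No libraries agreed within sampling noise. Groups of 3 were too small for a search for outlying libraries.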

Additional observations from a re-analysis of the deposited data

Results flagged for a closer look

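The tissue difference of 2 members differed between species by a test of the interaction. Of all 11832 tested genes, 20% had such a call for cattle minus sheep and 7.28% for sheep minus goat. ACTC1 was higher in muscle than in brain by more in cattle than in sheep, by 7.24 ± 1.26 on the log2 scale (edgeR, adjusted p = 0.00168), and its sheep minus goat value was -6.41 ± 1.24 (edgeR, adjusted p = 0.00893). All 3 cattle muscle libraries, at 106 to 1052 CPM per kilobase, lay above all 3 sheep muscle libraries, at 18.2 to 32.9. Goat muscle A and B, at 524 and 699, did so too, and goat muscle C, at 18.5, lay within the sheep range. The sheep model was 1266 exonic bases long, against 2123 in cattle and 1971 in goat. The brain also differed, with cattle over sheep at -3.01 ± 0.95 (edgeR, adjusted p = 0.0278) on 12 to 21 counts per library in cattle. That brain call was lost in 5 of the 18 fits that left out 1 library.

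ACTN2 had a tissue difference larger in cattle than in sheep by 1.56 ± 0.46 (edgeR, adjusted p = 0.0264), with 3 of 3 cattle muscle libraries above all 3 sheep muscle libraries. That interaction call was lost in 4 of the 18 fits that left out 1 library. In muscle 29.1% of all tested genes were called between cattle and sheep.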

How the results depend on the processing

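No tissue difference of a member changed sign in any alternative. Of 506 such values, 487 kept their side of the threshold, 17 gained a call and 2 lost one. Scaling by library totals alone accounted for 11 of the gains and both losses. It called 7 sheep members in place of 4, and of all genes called 2333, 1414, 2023 and 1138 higher in cattle, sheep, goat and the 3 species (in place of 4162, 2999, 3669 and 2745), with 7102 lower in sheep and 5921 over the 3 species (4456 and 3683). With DESeq2 the sheep minus goat interaction called 1559 genes in place of 861.

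First-step matches hold only ACTA2 and ACTB of the members. They called 1 member over the 3 species, 0 in the interactions of sheep with cattle and with goat, 0 in muscle for cattle against sheep, and 1 each in muscle for sheep against goat, where ACTA2 also lost its call (1.26), and in brain for cattle against sheep. Gene counts there were 523 for the sheep minus goat interaction, 1696 in muscle for sheep against goat (2715 in full) and, in brain, 2004, 1707 and 1406 (3014, 2710 and 2148 in full). Without the length offset ACTB in muscle, cattle over goat, reversed to -0.22, and the brain counts were 0 members for cattle against goat and 1 for sheep against goat, which was ACTN4 in place of ACTB and ACTA2. Summing both goat ACTA1 models, added after the data were seen, changed no call.

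Same-letter correlations between muscle and brain ran from -0.164 to 0.203, with every library nearest to its own letter in sheep (0.144, 0.112 and 0.0782) but not every one in cattle or goat, a hint from the data and not the design. The replicate block changed 1 member call, that of ACTA2 in sheep (1.44, adjusted p = 0.0374, in edgeR), and gave interaction counts of 968 for cattle minus goat and 324 for sheep minus goat (1583 and 861). Species within a tissue cannot be fitted with that block.

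Leaving out libraries, members called in interactions ranged from 1 to 3 for cattle and sheep, 0 to 1 for cattle and goat and 1 to 2 for sheep and goat, with 1056 to 2692 genes for cattle and goat and 450 to 1206 for sheep and goat. Without sheep brain C the cattle and goat count was 2629, and the sheep and goat count was 450 to 500 without goat brain A or C or without sheep muscle A, B or C. Members called ranged from 1 to 3 in muscle for cattle against goat and from 2 to 4 in muscle for sheep against goat. In brain they ranged from 1 to 2 for cattle against sheep and from 1 to 3 for sheep against goat. Shares of counts with no length correction moved past 1 SD for 39 of 84 group shares, among them ACTA1 in goat muscle (94.97% of the 4 actins) and ACTB in goat muscle (2.502%). Brain levels of ACTC1 and ACTN3 rest on few counts, which limits their precision.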
